A study of Dascyllus aruanus with 17 samples.

Results

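The synaptic vesicle release machinery is the set of proteins that dock, prime and fuse transmitter-filled vesicles at the nerve terminal. It was followed here as messenger RNA in the brain of a reef damselfish, Dascyllus aruanus, with whole brains sequenced. Members were the counted features whose annotated gene name begins with SYP, VAMP, SNAP25, STXBP, SV2, RAB3, CPLX, UNC13 or RIMS, with SYT or STX and a digit, or with SYN1, SYN2 or SYN3. The rule took 117 of the 21805 features of the count table, under 79 distinct names. The rule reads names and no expression value, though it was set with earlier results of these data known.

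A vesicle fuses when a SNARE protein on its membrane, a synaptobrevin (VAMP), zips together with syntaxin (STX) and SNAP25 on the plasma membrane. Syntaxin-binding proteins (STXBP) and UNC13 proteins (Munc13) set up that complex, complexins (CPLX) hold it ready, and synaptotagmins (SYT) trigger fusion when calcium enters. RAB3 GTPases and their RIM partners (RIMS) tether vesicles at the active zone, while synapsins (SYN), synaptophysins (SYP) and SV2 proteins sit on the vesicle itself. In brain these messages come mostly from neurons, and several families also have members that serve traffic inside any cell.

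The fish were wild, were held as 6 colonies with their corals and were habituated for 96 h. Control colonies then kept the natural cycle of light and dark, and the others received dim white light through the dark phase for 72 h (ALAN, artificial light at night). Sampling followed 3 nights of this, by day at ZT11 (zeitgeber time, an hour before sunset) or by night at ZT23 (an hour before sunrise). Each library was 1 brain. The day groups were 3 controls (replicates 1, 2 and 4) and 3 ALAN fish, and the night groups 4 controls and 4 ALAN fish. All fish shared the capture site and the habituation, and their age was not given in the sources used here. Light was given to whole colonies and the colony of each fish is not stated, so brains of a group may come from 1 colony and p-values measure the spread between these brains only.

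The 14 libraries held 14942952 to 23051193 expected counts (estimated read numbers per feature). Levels are given as CPM, the usual count measure scaled to library size, which are not per length and so were compared between brains and never between genes. Markers of neurons and glia were present in every brain. Neuron markers summed to 3708 to 4388 CPM, oligodendrocyte markers to 1590 to 2431 CPM and radial glia and astroglia markers to 4126 to 8433 CPM. Other markers varied more between brains. Markers of photoreceptors of the eye or the pineal summed to 64.8 CPM at the lowest and 2126 CPM at the highest, pituitary markers to 62.4 and 1412 CPM, muscle markers to 432 and 1521 CPM, and blood markers to 999.3 and 6051 CPM.

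By role the 117 features comprised 25 synaptotagmins (SYT, some of which do not bind calcium), 22 SNAREs, 22 SNARE regulators (STXBP, CPLX, UNC13), 17 vesicle proteins (SYN, SYP, SV2), 16 features of RAB3 with its effectors and regulators, and 15 features named RAB30 to RAB39, which share the letters and are not RAB3. Of these, 54 features under 28 names formed the exocytic core of neurons, named for isoforms known from release at synapses. Names and descriptions in the annotation do not always agree: both features named Syt1 in lower-case letters, DN48075 and DN72862, are described as synaptotagmin Vb, and CPLX1 DN9109 as complexin 2-like. The deposited annotation of the matched orthologues carried the domains that the names call for. All 25 SYT features had a C2 domain, all 7 VAMP features a synaptobrevin domain, all 15 STX features a syntaxin or SNARE domain, all 5 CPLX features a synaphin domain and all 4 SYN features a synapsin domain. Of the 11 STXBP features, 4 had a Sec1 domain, the other 7 being STXBP4, STXBP5 (tomosyn) and STXBP6 types. In KEGG's synaptic vesicle cycle, 31 of the 123 annotated features were members, and 28 of those 31 belonged to the core.

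Copies were common. In all, 25 names covered 63 features and 54 names had a single one, so features that share a name are told apart below by their assembly number. Annotated genes named SNAP25 (11), STX1A (2), VAMP2 (1), RAB3D (1) and SYT8 (1) had no counted feature and were not analysed here. Bit scores of the name matches ran from 95.9 to 2738 with a median of 454. Some names were weakly matched, with a bit score of 100 for UNC13A DN8137. In 15 members the feature shared its assembly component with another feature, among them RAB3C with RAB3A DN2585, and reads may have been divided between such pairs. A filter on low counts left 115 members, since STX11 and STXBP4 DN32194 had 48 and 59 counts over all libraries.

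The machinery took a similar slice of every brain's RNA. All members together held 0.892% to 1.05% of the counts of a library. The core summed to 7516 to 8585 CPM in control day brains, 7843 to 8160 CPM in ALAN day brains, 6880 to 7953 CPM in control night brains and 7170 to 7467 CPM in ALAN night brains. Both day groups therefore overlapped the control night group, while the ALAN night range lay under both day ranges. All members together summed to 9808 to 10260 CPM in ALAN day brains and 9109 to 9503 CPM in ALAN night brains, also without overlap. The share of counts held by all members, which carries no scaling between libraries, did overlap. It was 0.893% to 1.02% in ALAN day brains and 0.94% to 0.987% in ALAN night brains. An unscaled share of the core alone was not computed. In bulk tissue, fewer cells of a type and less RNA per cell cannot be told apart.

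The best counted members of most families give the range of these levels over the 14 brains. The complexin CPLX1 DN4392 ran from 863.2 to 1257 CPM and the priming factor UNC13A DN440 from 41.9 to 93.6 CPM. Synaptophysin SYP DN2621, a membrane protein of the vesicle, ran from 642.8 to 839.6 CPM, synapsin SYN1 from 156.3 to 222.2 CPM and the vesicle glycoprotein SV2A DN2537 from 65.6 to 106 CPM. The vesicle SNARE VAMP1 DN2409 ran from 321 to 462.8 CPM and the endosomal syntaxin STX12 from 164 to 212 CPM. The synaptotagmin SYT11, a family member that does not bind calcium in mammals, ran from 231 to 292 CPM. RAB3C lay between 137 and 184 CPM and RIMS3 between 92.8 and 165 CPM.

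Night was compared with day in the controls first, since that is the cycle the light treatment intrudes on. A single feature of the priming factor UNC13A, DN440, fell at night, and no other member passed edgeR's test. Of the 115 tested members 1 was called at an adjusted p under 0.05 (edgeR's quasi-likelihood test, Benjamini-Hochberg over 20782 features), where 2.07% of all tested features were called. At an unadjusted p under 0.05 the members numbered 14 (12.2%), 9 higher and 5 lower at night, against 14.6% of all features. The ranges of the day and night brains did not overlap in 15 members, 7 higher and 8 lower at night, against 13.4% of all features. These shares lie close to the background. DESeq2 called 6 of the 115 members, where it called 5.57% of all features with an adjusted p. These were UNC13A DN440, RAB3C, STXBP2, RIMS1 DN16359, STXBP5 DN5384 and RAB39B DN10009_c0_g2. RAB39B, a neuronal RAB GTPase in humans, had 47.5 to 50.1 CPM by day and 62.6 to 72.7 CPM by night in this feature (log2 fold change 0.46, SE 0.127, adjusted p = 0.0876, edgeR), and under ALAN its day and night ranges overlapped at 49.4 to 62.5 and 50.1 to 69.3 CPM.

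UNC13A, the mammalian Munc13-1, opens syntaxin and makes vesicles fusion-ready. The feature UNC13A DN440 (TRINITY_DN440_c0_g1) stood at 93.6, 72.7 and 85.9 CPM in control fish by day and at 62.5, 55.5, 41.9 and 46.4 CPM in control fish by night. Every night brain lay below every day brain. Under ALAN it stood at 68.2, 79.5 and 77.1 CPM by day and at 64.0, 52.9, 57.1 and 54.5 CPM by night, again without overlap. It fell at night in controls by a log2 fold change of −0.71 (SE 0.141, adjusted p = 0.0194, edgeR), to 0.613 of the day level. Averaged over both treatments the log2 fold change was −0.55 (SE 0.0995, adjusted p = 0.00576, edgeR).

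The other UNC13A features were not called, and whether their night against day differences depart from that of DN440 was not tested. UNC13A DN407, the best matched of the 3 with a bit score of 1488 against 446 for DN440, stood at 20.5 to 38.3 CPM by day and 15.4 to 32.7 CPM by night in controls, with means lower at night in both treatments (28.2 and 24.2 CPM in controls, 30.1 and 23.3 CPM under ALAN; averaged log2 fold change −0.29, SE 0.212, adjusted p = 0.529, edgeR). UNC13A DN8137 stood at 24.4 to 39.9 CPM and 23.3 to 37.9 CPM in controls (averaged 0.08, SE 0.153, adjusted p = 0.854, edgeR). DN440 and DN8137 were matched to the same orthologue and DN407 to one of another species, which does not by itself set DN407 apart. Whether the 3 features are pieces of a single gene or separate copies is therefore not resolved here. UNC13C, a paralogue with cerebellar expression in mammals, stayed between 45.7 and 55.8 CPM in all 14 brains. With the counts of the 3 UNC13A features summed, the night against day log2 fold change was −0.45 in controls (adjusted p = 0.0131, edgeR) and −0.34 averaged over treatments (adjusted p = 0.00456, edgeR).

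The call in controls was lost without control day replicate 1 (adjusted p = 0.101), control day replicate 4 (0.0650), control night replicate 3 (0.0507) or control night replicate 4 (0.0578), with log2 fold changes of −0.62 to −0.81 over all 14 omissions (edgeR). It was also lost with only the control groups in the fit (0.0915) and with photoreceptor, pituitary and muscle marker levels as covariates (0.159). The averaged call held in every omission, between adjusted p = 0.00258 and 0.0200, and missed the threshold at 0.0574 with those covariates, at a log2 fold change of −0.57 (edgeR).

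**Figure D1:**
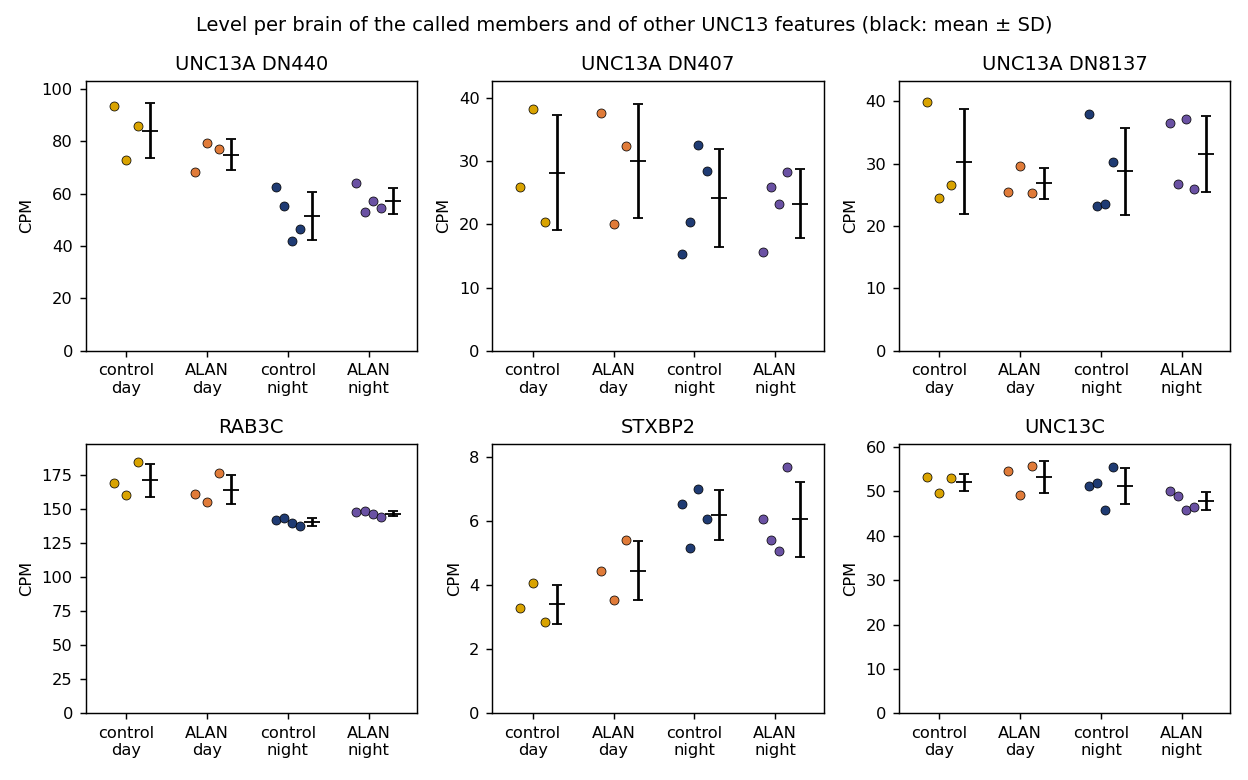
CPM (vertical axis) in each of the 14 brains, by group, for UNC13A DN440, RAB3C and STXBP2 and, beside them, the other UNC13A features and UNC13C; points are brains and black marks the mean with its SD. UNC13A DN440 and RAB3C lie lower at night than by day in both treatments, with no overlap within a treatment, while UNC13A DN407 and DN8137 and UNC13C overlap.

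Under ALAN the same comparison, in other brains, called 0 of the 115 members, where 1.03% of all features were called. At an unadjusted p under 0.05 it gave 8 members (6.96%), 2 higher and 6 lower at night, against 11.1% of all features, and DESeq2 also called 0 (3.18% of all features). Ranges did not overlap in 12 members, 4 higher and 8 lower, against 11.4% of all features. UNC13A DN440 had a log2 fold change of −0.39 (SE 0.141, adjusted p = 0.284, edgeR). The smallest p belonged to SYT2 DN1881, a fast calcium sensor (−0.33, SE 0.108, adjusted p = 0.224, edgeR), at 162.7 to 165.9 CPM by day and 120.3 to 144.2 CPM by night, and to STXBP4 DN9824 (−0.84, SE 0.292, adjusted p = 0.262, edgeR).

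The 2 treatments share no brain in the night against day comparison, so their directions can be set side by side. The log2 fold change had the same sign in both for 76 of 115 members (66.1%) and 37 of 54 core features (68.5%), against 59.3% of all tested features. Ranges failed to overlap in the same direction in both treatments in 5 members, against 3.49% of all features. These were UNC13A DN440, RAB3C, CPLX1 DN9109 and the synaptotagmin SYT4, lower at night, and SYPL2, higher at night. CPLX1 DN9109, SYT4 and SYPL2 are named after their values were seen. The night levels of CPLX1 DN9109 were 812.8 to 926.9 CPM in controls and 804.5 to 857.1 CPM under ALAN, against 941.8 to 995.3 and 867.1 to 992.6 CPM by day (averaged log2 fold change −0.14, SE 0.0569, adjusted p = 0.209, edgeR). SYPL2, a synaptophysin relative known from skeletal muscle in mice, stood at 0.646 to 1.36 CPM by day and 1.28 to 3.598 CPM by night (0.93, SE 0.343, adjusted p = 0.161, edgeR).

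**Figure D2:**
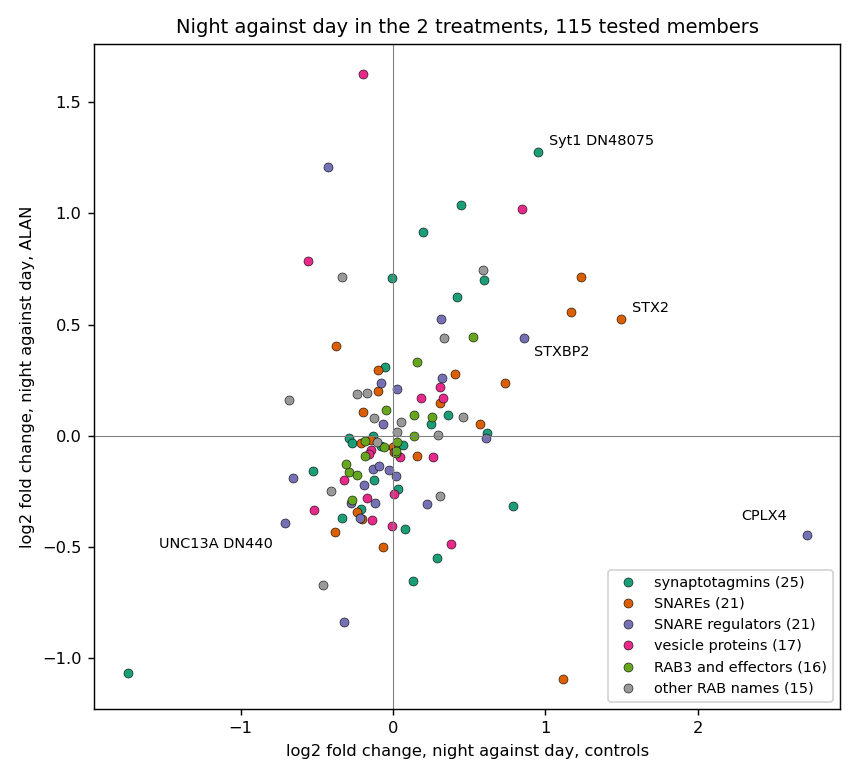
Log2 fold change of night against day in controls (horizontal) and under ALAN (vertical) for the 115 tested members, coloured by role with the number of features in the key. Same-sign members number 76 of 115, most points lie near the origin, and CPLX4 lies far to the right on the control axis alone, at 2.71.

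Averaging the night against day difference over both treatments uses all 14 brains. It called 3 members (4.34% of all features were called): UNC13A DN440 and RAB3C fell at night, and STXBP2 rose. At an unadjusted p under 0.05 it gave 24 members (20.9%), 12 higher and 12 lower at night, against 17.7% of all features. The calls fell among the 21 tested SNARE regulators (2) and the 16 features of RAB3 and its effectors (1), and edgeR called none of the 25 synaptotagmins, 21 SNAREs, 17 vesicle proteins and 15 RAB30 to RAB39 features.

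RAB3C is a small GTPase on the vesicle membrane that recruits vesicles to the active zone. It stood at 168.6, 160.2 and 184.1 CPM in control day brains and 141.5, 143.1, 139.4 and 137.1 CPM in control night brains. Under ALAN it stood at 161.1, 155.2 and 175.9 CPM by day and 147.7, 148.1, 145.8 and 144.3 CPM by night. Day and night did not overlap in either treatment, and the pooled within-group coefficient of variation of 4.83% was the lowest of the 74 members with at least 10 CPM. The log2 fold change was −0.22 (SE 0.0569, adjusted p = 0.0404, edgeR), or 0.856 of the day level. RAB3A DN2585, of the same assembly component, had −0.10 (SE 0.0628, adjusted p = 0.431, edgeR).

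STXBP2 is a Sec1-type protein of granule release in human blood and epithelial cells, and lies outside the neuronal core. It was sparse, with 3.30, 4.07 and 2.87 CPM in control day and 6.53, 5.15, 6.998 and 6.07 CPM in control night brains. Under ALAN it had 4.44, 3.54 and 5.40 CPM by day and 6.08, 5.40, 5.06 and 7.70 CPM by night, where the ranges overlap. The log2 fold change was 0.65 (SE 0.168, adjusted p = 0.0446, edgeR), or 1.57-fold the day level.

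The RAB3C and STXBP2 calls rest close to the threshold. RAB3C stayed called in 2 of 14 omissions, those of control day replicate 2 and ALAN day replicate 2, and had adjusted p = 0.0546 to 0.109 in the other 12 (edgeR). STXBP2 stayed called in 2 of 14, those of control day replicate 2 and ALAN day replicate 3, and had adjusted p = 0.0534 to 0.114 in the other 12 (edgeR). With the 3 marker covariates the values were 0.294 for RAB3C and 0.195 for STXBP2.

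Below the edgeR threshold the smallest p-values of the averaged comparison were spread over the roles. SYT2 DN1881 had a log2 fold change of −0.27 (SE 0.0764, adjusted p = 0.0654), RIMS1 DN16359, a scaffold of the active zone, −0.21 (SE 0.0620, adjusted p = 0.0793) and STXBP5 DN5384, the tomosyn that competes with synaptobrevin, −0.42 (SE 0.131, adjusted p = 0.0908), all by edgeR. Higher at night without passing were Syt1 DN48075, described as synaptotagmin Vb (1.11, SE 0.325, adjusted p = 0.0730), RAB3GAP1, which switches RAB3 off (0.49, SE 0.155, adjusted p = 0.100), and SV2A DN2537 (0.26, SE 0.0897, adjusted p = 0.124, edgeR). RIMS1, STXBP5 and RAB3GAP1 are named after their values were seen. DESeq2 called 10 of the 115 members here, where it called 8.67% of all features, namely the 5 features SYT2 DN1881, RIMS1 DN16359, STXBP5 DN5384, Syt1 DN48075 and RAB3GAP1, the 3 that edgeR called, and SYT4 and CPLX1 DN9109.

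By counts alone, more of the core was lower at night and more of the remainder higher, a difference between the lists that was not tested. Of the 54 core features 37 had lower and 17 higher night levels (median log2 fold change −0.10), and 2 were called. Of the 61 members outside the core 37 had higher and 24 lower levels, with a median of 0.03, and 1 was called. Over all tested features 4.34% were called, 51.8% were higher at night and the median was 0.01. By role the medians were −0.08 for SNARE regulators, −0.06 for synaptotagmins, −0.06 for vesicle proteins, −0.03 for RAB3 with its effectors, 0.01 for SNAREs and 0.02 for the RAB30 to RAB39 names. The core median stayed below 0 under all 20 alternatives run, from −0.11 to −0.07.

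The best counted core features had small differences in this comparison. The log2 fold change was −0.12 for SYP DN2621 (SE 0.0680, adjusted p = 0.393), −0.11 for SYN1 (SE 0.0909, adjusted p = 0.615), −0.08 for VAMP1 DN2409 (SE 0.0885, adjusted p = 0.709) and −0.22 for RIMS3 (SE 0.138, adjusted p = 0.464, edgeR). CPLX1 DN4392 had 0.12 (SE 0.0943, adjusted p = 0.583, edgeR). The endosomal SNARE STX12 (−0.02, SE 0.0669) and SYT11 (0.01, SE 0.0688) lay nearest to 0.

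Cell type markers moved in the same comparison, where edgeR called 4.34% of all features. Of 17 neuron marker features 16 were lower at night (1 called), the median log2 fold change being −0.12, and their summed level was 3988 to 4388 CPM by day and 3708 to 4233 CPM by night. Of 7 radial glia and astroglia features 5 were higher at night, 2 of them called, with summed levels of 4126 to 6523 CPM by day and 6072 to 8433 CPM by night. Within controls neither sum overlapped between day and night. Neuron markers had 3988 to 4388 CPM by day and 3736 to 3895 CPM by night, and glial markers 4126 to 6317 and 7027 to 7917 CPM. Under ALAN both sums overlapped. The glial median log2 fold change was 0.80 in controls (5 of 7 higher) and −0.01 under ALAN (3 of 7 higher). Of 29 muscle features 22 were lower at night, 3 of them called. All 5 blood features were lower and 19 of 26 photoreceptor features higher at night, with 0 called in either list by edgeR. Their part in the leaning of the core was not tested.

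**Figure D3:**
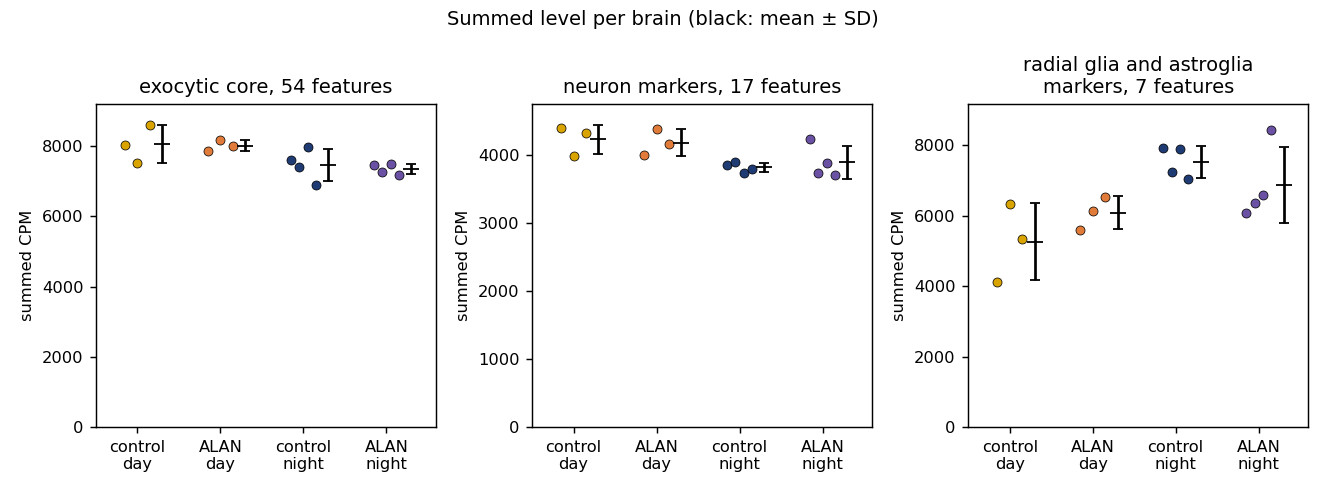
Summed CPM (vertical axis) per brain and group of the 54 core features, 17 neuron marker features and 7 radial glia and astroglia marker features; points are brains and black marks the mean with its SD. The core and the neuron markers lie somewhat lower at night, the core at 6880 to 7953 CPM against 7516 to 8585 CPM by day. The glial markers lie somewhat higher. With the treatments pooled, day and night overlap in each. Within controls both marker sums are without overlap and the core overlaps, while under ALAN only the core is without overlap.

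ALAN was then compared with the control cycle in the night brains. No member was called by edgeR. The count was 0 of 115 by edgeR, where 0.0289% of all tested features were called, with 5 members (4.35%) at an unadjusted p under 0.05, 2 higher and 3 lower under ALAN, against 4.61% of all features. DESeq2 called 1, CPLX4 (0.198% of all features). Ranges did not overlap in 3 members, 1 higher and 2 lower, against 2.5% of all features. The median log2 fold change was 0.03 over the members and −0.01 over the core, against −0.01 over all features.

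For many members the interval of the difference was narrow. The 95% interval lay within 1.5-fold in either direction in 62 of 115 members (53.9%), against 35.9% of all features, and within 2-fold in 85 (73.9%). Members were better counted, with 74 of 115 at 10 CPM or more, against 10057 of 20782 features. Here and in the later comparisons the shares of narrow intervals were not compared at matched counts. RAB3C had an interval on the log2 scale of −0.10 to 0.22, VAMP1 DN2409 of −0.30 to 0.20 and UNC13A DN440 of −0.13 to 0.43.

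VAMP1 DN163, the less counted of the 2 features named for synaptobrevin 1, had the smallest p of the members. It stood at 18.9, 12.4, 11.7 and 13.2 CPM in control fish by night and at 5.05, 7.32, 6.67 and 6.08 CPM in ALAN fish by night, with no overlap. By day it had 13.1, 8.36 and 7.02 CPM in controls and 10.1, 2.68 and 5.35 CPM under ALAN, with overlap. The night log2 fold change was −1.16 (SE 0.334, adjusted p = 0.909, edgeR; 0.150 by DESeq2), and averaged over both times it was −0.90 (SE 0.255, adjusted p = 0.430, edgeR). VAMP1 DN2409 stood at 391.2 to 440.7 and 321.0 to 451.1 CPM in the same night groups, and with both features summed the night value was −0.07 (adjusted p = 0.999, edgeR). Over all libraries DN2409 held 109778 counts and DN163 held 2459, so the sum says little about DN163.

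CPLX4, a complexin known in mice from photoreceptor ribbon synapses, had the largest difference. Its levels were 0.867, 3.35, 0.840 and 30.9 CPM in the night controls and 0.430, 0.732, 1.14 and 0.304 CPM in ALAN night brains. Control night replicate 4 stood apart, and the remaining night brains of both treatments overlap. The 4 control night brains also enter the night against day comparison in controls, where CPLX4 had 2.71 (SE 1.17, adjusted p = 0.304, edgeR). By day it had 2.94, 0.760 and 0.468 CPM in controls and 0.641, 1.43 and 0.623 CPM under ALAN. The log2 fold change at night was −3.77 (SE 1.10, adjusted p = 0.909, edgeR; 0.0365 by DESeq2), −1.36 without control night replicate 4 and −0.25 with the 3 marker covariates.

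Photoreceptor markers were high in the same brains. Their 29 features summed to 104.6, 459.1, 100.9 and 2126 CPM in control night brains and to 96.3, 119, 82.6 and 64.8 CPM in ALAN night brains. By day the sums were 398.8, 103.9 and 101.5 CPM in controls and 93.7, 167.8 and 94.1 CPM under ALAN. The 4 brains with the most CPLX4 were also the 4 with the highest photoreceptor sums, in the same order. The part of this list in the CPLX4 difference was not tested. The fit with marker covariates cannot tell it from the part of control night replicate 4, which had the highest sum. Of the 26 tested markers of that list, 23 had lower levels in the ALAN group at night. CPLX3, a complexin of retinal ribbon synapses and some brain neurons in mice, stood at 33.9 to 65.4 CPM over all brains without a peak in control night replicate 4, where it had 40.8 CPM.

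**Figure D4:**
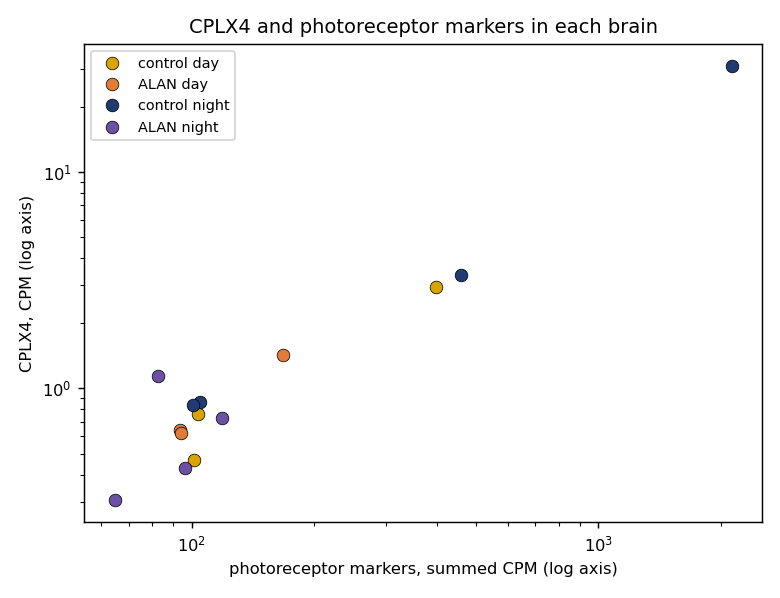
CPLX4 (vertical, CPM, log axis) against the summed photoreceptor markers (horizontal, CPM, log axis) in each of the 14 brains, coloured by group. Control night replicate 4 lies at the top right with 30.9 CPM of CPLX4 and 2126 CPM of photoreceptor markers. The ALAN night brains lie at 0.304 to 1.14 CPM of CPLX4 and 64.8 to 119 CPM of the markers, ranges that brains of the other groups share.

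STX17, a SNARE of autophagosome fusion, had the third smallest p at night. It stood at 7.51, 4.20, 3.92 and 9.11 CPM in night controls and at 2.42, 3.20, 1.99 and 1.57 CPM in ALAN night brains, with no overlap (log2 fold change −1.43, SE 0.480, adjusted p = 0.988, edgeR). By day the order was not the same, with 3.95, 1.36 and 3.28 CPM in controls and 1.68, 8.33 and 4.73 CPM under ALAN, which overlap.

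By day, ALAN and control brains gave 0 called members of 115, where 0.00481% of all features were called. An unadjusted p under 0.05 was reached by 2 members (1.74%), both higher under ALAN, against 6.92% of all features, and DESeq2 called 0 (0.68% of all features). Ranges did not overlap in 8 members, 6 higher and 2 lower, against 10.7% of all features. The 2 members were STXBP3, a Sec1-type protein that pairs with syntaxin 4 in many cell types (0.54, SE 0.207, adjusted p = 0.589, edgeR), and SV2C DN473_c0_g1 (0.40, SE 0.184, adjusted p = 0.721, edgeR). STXBP3 had 9.90, 10.3 and 9.77 CPM in control day and 12.1, 17.7 and 13.9 CPM in ALAN day brains. The 95% interval lay within 1.5-fold in 41 members (35.7%), against 26.8% of all features. Muscle markers summed to 431.9 to 1521 CPM in controls by day and 479.2 to 678 CPM in ALAN brains by day. Pituitary markers summed to 64.3 to 104 CPM and 76.7 to 1357 CPM in the same groups, with all 7 features higher under ALAN. The part of either list in these differences was not tested.

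**Figure D5:**
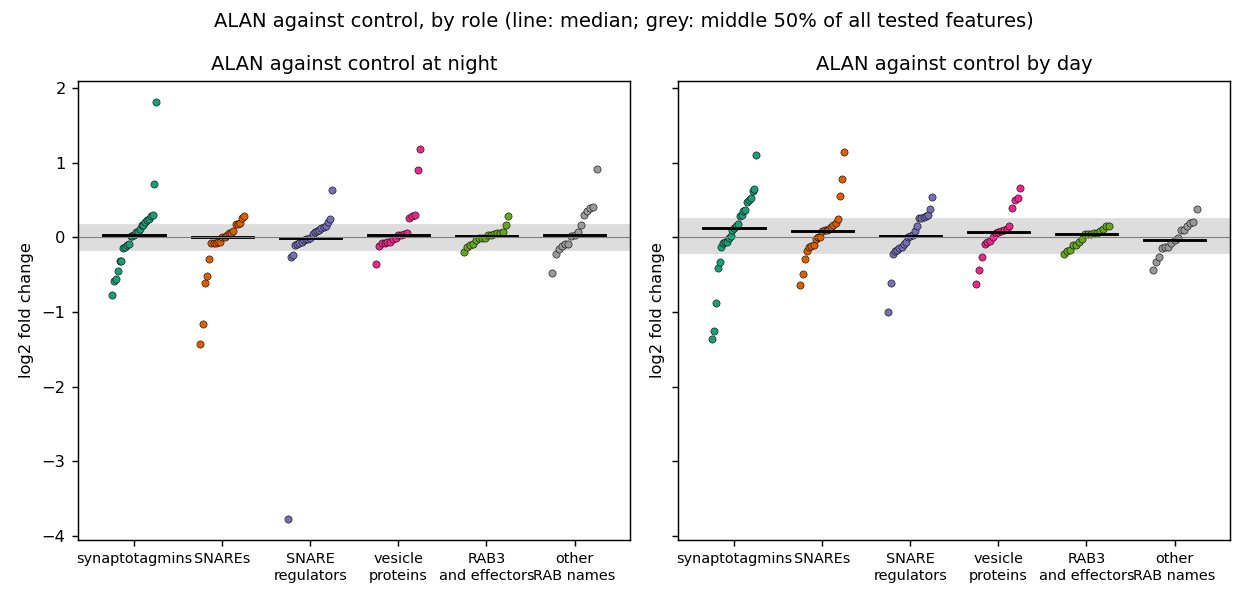
Log2 fold change of ALAN against control (vertical axis) at night and by day for each tested member, grouped by role along the horizontal axis; black lines are role medians and the grey band holds the middle 50% of all tested features. Role medians lie near 0 at both times, and CPLX4 at −3.77 is the lowest point at night.

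Averaged over both times of day, ALAN against control called 0 members, where 0.00481% of all features were called. At an unadjusted p under 0.05 it gave 4 members (3.48%), 1 higher and 3 lower under ALAN, against 5.71% of all features, and DESeq2 called 0 (0.744% of all features). The smallest p-values belonged to VAMP1 DN163, CPLX4 (−2.19, SE 0.808, adjusted p = 0.736) and Syt1 DN48075 (−0.71, SE 0.318, adjusted p = 0.857, edgeR). With the most brains per side, the 95% interval lay within 1.5-fold in 77 members (67.0%) and within 2-fold in 96 (83.5%), against 48.2% and 71.3% of all features.

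Whether ALAN altered the night against day difference was tested as an interaction, which gave 0 called members (0% of all features were called). At an unadjusted p under 0.05 it gave 4 members (3.48%), 1 higher and 3 lower, against 6.15% of all features, and DESeq2 called 0 (0.271% of all features). The smallest p-values belonged to STX17 (−2.21, SE 0.730, adjusted p = 0.685), the calcium sensor SYT7 DN13684_c0_g2 (−1.11, SE 0.441, adjusted p = 0.744) and STX18, a syntaxin of the endoplasmic reticulum (0.78, SE 0.316, adjusted p = 0.747, edgeR). For UNC13A DN440 the interaction was 0.31 (SE 0.200, adjusted p = 0.888, edgeR), so its differences of −0.71 in controls and −0.39 under ALAN were not told apart. RAB3C had 0.12 (SE 0.114, adjusted p = 0.915) and STXBP2 −0.42 (SE 0.331, adjusted p = 0.905, edgeR). Intervals were wide here, lying within 1.5-fold in 26 members (22.6%), against 14.2% of all features.

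Spread between brains differed greatly among the members. Over the 74 members with at least 10 CPM the median pooled coefficient of variation was 17.5%, against 16.4% for the 10057 features at that level. The steadiest were RAB3C, CPLX1 DN9109 (4.92%), RIMS1 DN16359 (5.50%), SYT4 (5.60%), RAB3A DN2585 (5.76%) and UNC13C (6.04%). The most variable were SV2A DN473 (41.5%) and the fast calcium sensor SYT2 DN5188 (37.4%), all named after their values were seen. SYT2 DN5188 stood at 36.2, 63.0, 118.9 and 76.5 CPM in the control night brains and at 45.5, 93.7 and 41.5 CPM in the control day brains. SV2A DN473 had 12.0, 21.1, 46.4 and 41.1 CPM in those night brains. Control night replicate 1 was the lowest and replicate 3 the highest for both features. SYT2 DN5188 was matched to the same orthologue as SYT2 DN1881, whose coefficient of variation was 8.565%. SV2A DN473 shares its assembly component with SV2C DN473_c0_g1. Whether the spread of either feature comes from a division of reads between assembly pieces was not tested.

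The partners of the machinery were followed through a list of 64 symbols for priming ATPases, active zone scaffolds, calcium channels, transmitter transporters and the endocytic proteins that retrieve vesicles, of which 59 had a feature, 129 in all. Of 128 tested, edgeR called 0 between night and day in controls, while 17 (13.3%, against 14.6% of all features) had an unadjusted p under 0.05 and DESeq2 called 4 (5.57% of all features). Averaged over treatments 81 were lower and 47 higher at night (median log2 fold change −0.05), where 51.8% of all features were higher. At an unadjusted p under 0.05 there were 20 (15.6%), against 17.7% of all features. By edgeR 2 were called, where 4.34% of all features were called. SNAP91 DN9548, a clathrin adaptor (AP180), fell (−0.40, SE 0.0943, adjusted p = 0.0276, edgeR), at 460.5 to 636.8 CPM by day and 354.5 to 516.6 CPM by night. SYNGR2 DN14254, a synaptogyrin of many cell types, rose (1.15, SE 0.286, adjusted p = 0.0370, edgeR), at 0.789 to 4.28 CPM by day and 3.34 to 7.61 CPM by night. The other feature of that name, DN7446, had group means of 8.38 and 10.1 CPM by day and 7.27 and 7.95 CPM by night, in controls and under ALAN. Both called features are named after their values were seen. For ALAN, 0 partners were called at night or by day, while 3 (2.34%) and 8 (6.25%) had an unadjusted p under 0.05, against 4.61% and 6.92% of all features, and DESeq2 called 0 at either time.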

How the data were processed

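Whole brains were sequenced 1 per library, per the labels with non-stranded libraries, read pairs of 150 bases and molecular identifiers of 9 bases. The authors deposited expected counts (estimated reads per feature, 95.98% of values not whole) for 21805 features of a de novo assembly in 14 libraries. Trimmomatic 0.39, Bowtie2 and RSEM are named in the submitters' processing notes, and the sources used here do not say whether identifiers were collapsed. Gene names, domains, pathways and the bit score of each match come from the annotation the authors deposited, for which the file headers name eggNOG-mapper 2.1.7. Without strand, reads of a gene and an antisense partner cannot be told apart. No genome was used, so positions, lengths and sequences are not analysed here, and 3 assembly libraries were not used.

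Members and lists were chosen with earlier results of these data known. Counts were rounded, filtered with filterByExpr (minimum count 10, minimum total 15, 20782 features kept), scaled by TMM (factors 0.870 to 1.08) and fitted in edgeR 4.0.16 (R 4.3.3) by quasi-likelihood with 1 mean per group over the 14 libraries, for 7 contrasts, with Benjamini-Hochberg adjustment over all features. The SE is the log2 fold change over the root of F. Named members are every called one, the 3 smallest p-values of each contrast and the best counted of each family, of which some are not reported here. Group ranges of CPM were compared without a test. On simulated data the averaged night against day fit recovered 20%, 60%, 86% and 96% of features changed 1.5-, 2-, 3- and 4-fold. The changed features were drawn from the better counted ones only. Alternatives were DESeq2 1.42.0, RLE size factors, no filter, the replicate number as a block, counts summed by name, 3 tissue marker covariates, only the groups compared, and each library left out in turn.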

Additional observations from a re-analysis of the deposited data

Results flagged for a closer look

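In groups of 4 brains, 46 pairs of a named member and a group were examined for a single brain standing apart from the others by Dixon's criterion, and 5 were found, where chance alone flags about 1 in 20. CPLX4 stood at 30.9 CPM in control night replicate 4 against 0.840 to 3.35 CPM in the other 3 control night brains, and that brain also held the most photoreceptor marker RNA, 2126 CPM. STXBP4 DN9824, named for a syntaxin-binding protein known from insulin-responsive cells in mice, was low in replicate 4 of both night groups. It had 3.21 CPM against 7.05 to 7.45 CPM in the other control night brains, and 4.66 CPM against 5.38 to 5.49 CPM in the other ALAN night brains. STX12 had 184 CPM in control night replicate 3 against 194 to 195 CPM in the others. VAMP1 DN2409 had 440.7 CPM in control night replicate 2 against 391 to 396.5 CPM in the others.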

How the results depend on the processing

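Counts of called members moved most with the tool. DESeq2 called 1 member for ALAN at night, 6 for night against day in controls and 10 averaged over treatments, against 0, 1 and 3 by edgeR, and its partner counts were 4 and 8 for the same night comparisons and 2 for ALAN averaged over times. Of all features DESeq2 called 0.198% for ALAN at night, 5.57% in controls, 8.67% averaged over treatments and 0.744% for ALAN averaged. The shares by edgeR were 0.0289%, 2.07%, 4.34% and 0.00481%. With 3 tissue covariates the night against day counts were 0 and 0 for members and 0 for partners averaged over treatments. Restricting the controls' comparison to its 2 groups gave 0. Summing counts by gene name gave 2 members in controls, UNC13A and STXBP5 (−0.51, adjusted p = 0.0183, edgeR), and 1 partner in each night comparison. Leaving out a library gave 0 to 2 members in controls and 1 to 4 averaged, and 0 to 1 and 0 to 3 partners. In the other 5 comparisons every omission gave 0 of either. The replicate numbers do not pair the brains: deviations of same-numbered brains correlated from −0.17 to 0.10 over 18 pairs, and of other pairs from −0.15 to 0.16. With the number as a block, members called were 0 in controls and 1 averaged. Shares of all features called under the alternatives other than DESeq2 are not given here. From these counts, calls lost by the members cannot be told from calls lost over all features. Named members had 33 pairs of a member and a comparison with an unadjusted p under 0.05. Only 4 of these were called in the main fit, so only those could lose a call. UNC13A DN440 stayed called in 14 of 21 alternatives in controls and in 19 of 20 averaged over treatments. RAB3C and STXBP2, averaged over treatments, each stayed called in 6 of 20. Of the 677 alternative values of all 33 pairs, 629 kept direction and side of the threshold, 36 lost a call, 7 gained one and 5 turned. All 5 turned where counts were summed by name, an alternative that mixes features: SYT7 DN13684_c0_g2 to −0.11 in controls and 0.0703 in the interaction, and Syt1 DN48075 to −0.21 under ALAN, −0.0882 averaged over treatments and 0.043 for ALAN averaged. In simulated data 4% of 1.5-fold and 34% of 2-fold changes were recovered for night against day in controls. There, 50 features were changed at each fold among 20534 tested. They were drawn from all features with a mean count over 50, so sparse features were left out, and not from the members as such. The simulation therefore gives no detection rate for the members, and small differences among them may have been missed.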
